A study of Mus musculus with 14 samples.

Results

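Messenger RNA levels of 8 cathepsins (Ctss, Ctsb, Ctsd, Ctsl, Ctsz, Ctsc, Ctse and Ctsh), of legumain (Lgmn) and of the protease inhibitor cystatin C (Cst3) were followed one cell at a time in a sort for type 1 conventional dendritic cells (cDC1) of mouse melanomas. These 10 genes of the 21205 in the table were chosen by name for their function, with earlier results of these data known. All 10 passed the filter on low counts in each of the fits below. Their levels are given per plate and genotype and in cells defined by UMIs of Xcr1, Ccr7 or C1qa. UMIs are unique molecular identifiers, meant to mark single transcripts.

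YUMM1.7 melanoma cells were grown under the skin of female mice, and each of the 14 samples was 1 plate of single cells from 1 tumour of 1 mouse. Irf1_dXCR1 comprised 5 plates with 223 cells, and its control Irf1_FF comprised 4 plates with 165 cells; these mice were 6 weeks old. Ikbkb_dXCR1 comprised 4 plates with 133 cells, from mice aged 8 weeks (replicates 1 and 2) and 6 weeks (replicates 3 and 4), and its control Ikbkb_FF was a single plate with 34 cells from a mouse aged 8 weeks. The product of Irf1 is a transcription factor induced by interferons, and that of Ikbkb is IKKβ, a kinase that activates NF-κB. The name dXCR1 is read here as deletion in cells that express Xcr1, the chemokine receptor that marks cDC1; the labels describe neither the driver nor the deleted exons. The Irf1 groups belong to experiment M3 and the Ikbkb groups to experiment M2, so experiment and targeted gene cannot be told apart, and each deleted group is compared below with its own control.

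Plates held 2810321 to 10120557 UMIs. Irf1 measured 92.5 to 344 counts per 1000000 UMIs (CPM) over all cells of Irf1_dXCR1 plates and 203 to 448 CPM in Irf1_FF plates, and Ikbkb measured 133 to 291 CPM in Ikbkb_dXCR1 plates and 300.1 CPM in the Ikbkb_FF plate; the Irf1 groups overlapped, and whether the counted reads lie in the deleted exons is not given in the sources used here. The members were measured in 154 Ccr7+ cells, 49 C1qa+ cells and 141 Xcr1+ Ccr7- cells, each meeting 1 of the definitions only (1 or more UMI), while 24 cells met more than 1 definition and 187 cells met none. The 10 cDC1 markers summed to 6709.9 CPM in Xcr1+ Ccr7- cells, the 10 markers of mature dendritic cells to 9044 CPM in Ccr7+ cells, and the 10 macrophage markers to 10047 CPM in C1qa+ cells, against 261 CPM in Ccr7+ and 192 CPM in Xcr1+ Ccr7- cells. These sums include the genes that defined the cells, Xcr1 with 676 CPM, Ccr7 with 2749 CPM and C1qa with 2006 CPM, so only their remainder is a check. The sort also held macrophage-like cells, and 107 cells carried UMIs of 2 or more of 4 fibroblast markers, up to 67.4% of cells in Irf1_FF replicate 1. These 107 cells are not a separate set, since some of them also met a definition. Irf1_dXCR1 replicate 2 stood apart with a median of 705 genes per cell, against 1092 to 2241 in the other plates. All 94 well barcodes occurred in more than 1 plate, and no pair of cells had identical counts.

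Cathepsins are proteases of endosomes and lysosomes that degrade internalised proteins; in antigen-presenting cells they also cut the invariant chain that occupies MHC class II molecules before peptide loading. Legumain, which cuts after asparagine, processes several cathepsins into their mature forms. Cystatin C is a secreted inhibitor of cysteine cathepsins, and its transcript is abundant in dendritic cells, above all in cDC1.

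Of the 10 members, 7 had a promoter in the RefSeq table (build GRCm38.p6, 250 bases before to 50 after the gene start), with 8 promoters in all since Lgmn has 2; Ctsb, Ctse and Ctsh had none. Each motif was searched on both strands: a pair of GAAA with 2 bases between them, the type bound by interferon regulatory factors such as IRF1, then TCACGTGA, the type bound by TFEB, a regulator of lysosomal genes, and last GGG and TTTCC with 2 bases between them, of the NF-κB type. The first was found in 3.44% of the 32851 promoters of the table and, of the members, in Ctss. The second was found in 0.974% of promoters and, of the members, in Ctsd, while the third, found in 1.63% of promoters, was in none of the 8. The promoters of Ctss, at chr3:95526536-95526835 on the plus strand, and of Ctsd, at chr7:142387778-142388077 on the minus strand, are shown because a factor deleted here, or the known regulator of lysosomal genes, binds such motifs. Capitals mark the motif, whose first base lies 21 bases before the gene start in Ctss and 99 bases before it in Ctsd; a match of letters is no evidence of binding.
Ctss: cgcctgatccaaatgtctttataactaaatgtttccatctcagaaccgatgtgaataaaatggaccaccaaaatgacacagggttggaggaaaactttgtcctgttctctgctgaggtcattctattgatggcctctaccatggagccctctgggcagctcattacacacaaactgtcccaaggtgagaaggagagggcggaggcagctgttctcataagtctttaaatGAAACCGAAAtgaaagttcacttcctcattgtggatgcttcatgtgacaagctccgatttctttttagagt
Ctsd: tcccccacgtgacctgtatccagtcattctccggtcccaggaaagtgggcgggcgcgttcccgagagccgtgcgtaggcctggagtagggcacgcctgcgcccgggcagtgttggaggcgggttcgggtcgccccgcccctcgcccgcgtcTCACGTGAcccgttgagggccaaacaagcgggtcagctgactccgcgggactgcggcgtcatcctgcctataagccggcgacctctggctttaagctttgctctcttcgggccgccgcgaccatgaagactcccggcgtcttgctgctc

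Each of the 10 members was detected in the 3 populations, at levels that differed widely between genes. UMIs count molecules at 1 end, so CPM of different genes can be set side by side without dividing by length. In Xcr1+ Ccr7- cells Cst3 measured 4279.5 CPM, Ctss, the cathepsin best known for cutting the invariant chain in dendritic cells, 1399 CPM, and Ctsz, a carboxypeptidase, 986 CPM. Ctsb, a broadly expressed cysteine protease, followed with 618 CPM, then Ctsc, the dipeptidyl peptidase that activates granzymes and neutrophil proteases, with 457 CPM and Ctsh, an aminopeptidase, with 439 CPM. Lgmn measured 123 CPM, and the remaining members were below 50 CPM: Ctsl, the cysteine protease that cuts the invariant chain in thymic epithelium, 35.7 CPM, Ctsd, a widely expressed aspartic protease, 35.5 CPM, and Ctse, an aspartic protease of immune cells and stomach, 19 CPM. A median of 6 members per cell had a UMI in Xcr1+ Ccr7- cells, compared with 5 in Ccr7+ and 7 in C1qa+ cells.

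Ctsl and Ctsd came mostly from cells outside the dendritic-cell definitions. Cells with 2 or more fibroblast markers were 19.3% of all cells and held 79.9% of Ctsl UMIs and 50.5% of Ctsd UMIs. Ctsl had a UMI in 8 of 154 Ccr7+ cells, 21 of 49 C1qa+ cells and 6 of 141 Xcr1+ Ccr7- cells, and Ctsd in 13, 17 and 8 of the same cells. Ctse showed the opposite distribution, with 65.6% of its UMIs in Xcr1+ Ccr7- cells, which made up 25.4% of cells and held 33.3% of all UMIs. Ctse was nevertheless detected in only 23 of those 141 cells.

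Mature dendritic cells carry the migration receptor Ccr7. Ccr7+ cells were therefore set against Xcr1+ Ccr7- cells of the same tumour to see whether the protease genes differ between the 2 sets of cells. The 10 cDC1 markers summed to 2965 CPM in Ccr7+ cells and 6709.9 CPM in Xcr1+ Ccr7- cells, and 129 of 154 Ccr7+ cells had no Xcr1 UMI. Whether those cells are cDC1 was not tested, so maturation and cell type cannot be told apart here. Ccr7+ cells had more Lgmn and, relative to all UMIs, more Cst3 and Ctsz. In 10 plates with at least 5 cells of both kinds, with plate as a block in the fit, these 3 of 10 members were higher at an adjusted p under 0.05 and none was lower (edgeR quasi-likelihood test, two-sided, Benjamini-Hochberg over 13160 genes). Over all genes 1.37% were called higher and 0.479% lower, that is 180 and 63 genes, together 1.85%. DESeq2 called 686 genes higher and 1205 lower, 14.4% in all, among them 5 members. The log2 fold change was above 0 for 8 of 10 members and 40% of all genes, with a median of 0.66 for the members and -0.44 for all genes tested.

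Lgmn measured 203 to 1739 CPM in Ccr7+ cells (median 1006, n = 10 plates) and 64.4 to 216 CPM in Xcr1+ Ccr7- cells (median 122). It was higher in Ccr7+ cells in each of the 10 plates, and the ranges overlapped only through the Ccr7+ cells of Irf1_FF replicate 1, at 203 CPM. The log2 fold change was 3.01 ± 0.31 (SE), or 8.05-fold, with an adjusted p of 2.98e-06; it was 2.76 in the 7 plates of experiment M3 (adjusted p = 0.0022, edgeR) and 3.53 in the 3 plates of M2 (adjusted p = 1.86e-05, edgeR). A UMI of Lgmn was present in 68.2% of Ccr7+ cells (exact 95% binomial interval 60.2 to 75.4%) and in 27.7% of Xcr1+ Ccr7- cells (20.5 to 35.8%). After each cell was thinned to 40000 UMIs the shares were 68.5% of 127 and 25.6% of 133 cells. Per cell, Lgmn averaged 139 ± 60.5 UMIs in Ccr7+ cells and 29.5 ± 12.9 UMIs in Xcr1+ Ccr7- cells (SD over 10 plates). Among Ccr7+ cells, the 25 that also had an Xcr1 UMI held 485 CPM of Lgmn and the 129 without one held 1300.4 CPM.

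**Figure D1:**
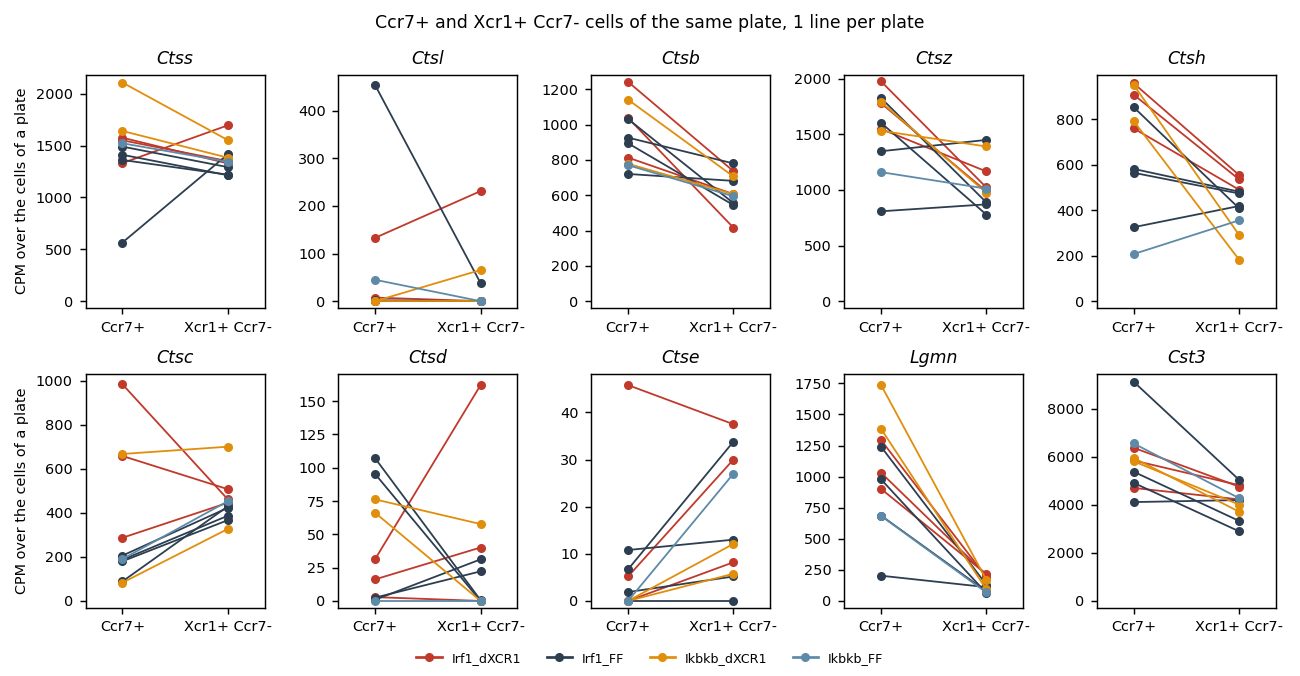
CPM of each member (y axis, linear) in Ccr7+ and Xcr1+ Ccr7- cells of the 10 plates that had at least 5 cells of both; each line joins the values of 1 plate and its colour gives the genotype. All 10 Lgmn lines and all 10 Ctsb lines are higher at Ccr7+, while 8 of 10 Ctsc lines are higher at Xcr1+ Ccr7-.

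Cst3 measured 4113 to 9119 CPM in Ccr7+ cells (median 5826) and 2897 to 5039 CPM in Xcr1+ Ccr7- cells (median 4211), and it was higher in 9 of 10 plates. Its log2 fold change was 0.59 ± 0.09 (SE; adjusted p = 2.63e-04, edgeR), with 0.57 in M3 plates and 0.63 in M2 plates. Counted per cell, the order was the other way: Cst3 averaged 797 ± 75.7 UMIs in Ccr7+ cells and 893 ± 55.9 UMIs in Xcr1+ Ccr7- cells, and was lower in Ccr7+ cells in 9 of 10 plates. Cst3 lay close to the ceiling that UMIs of 5 bases set on a count, with 900 or more UMIs in 85 of 154 Ccr7+ cells and 100 of 141 Xcr1+ Ccr7- cells, so its counts are understated in both. UMIs of all genes averaged 142369 per Ccr7+ cell and 220817 per Xcr1+ Ccr7- cell and were lower in Ccr7+ cells in all 10 plates. With counts corrected for repeated UMIs the log2 fold change of Cst3 was 0.46 (adjusted p = 0.00385, edgeR). The part of the ceiling and of the total in the Cst3 difference was not tested further.

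**Figure D2:**
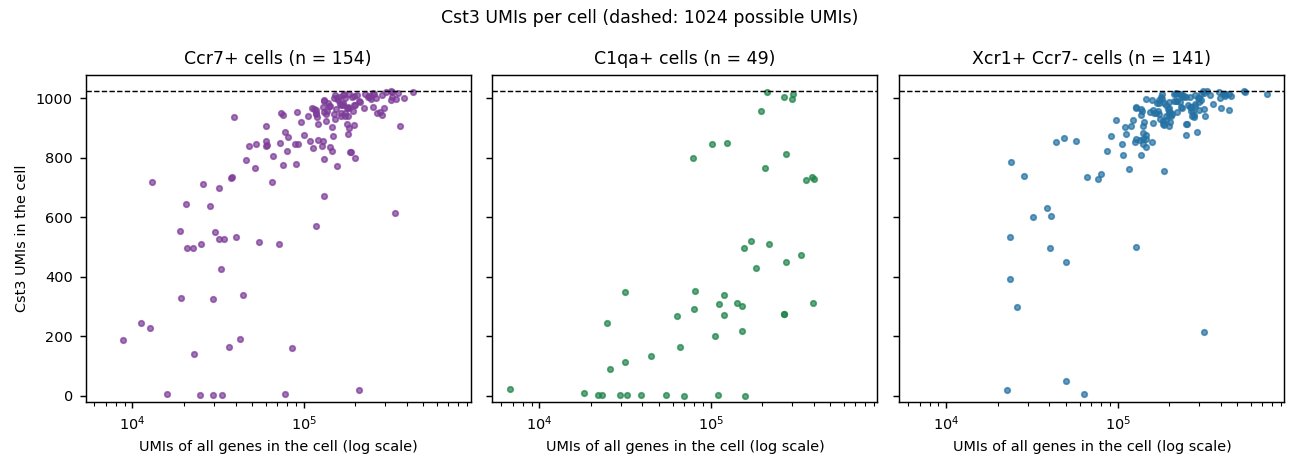
Cst3 UMIs of each cell (y axis, linear) against UMIs of all genes in that cell (x axis, log scale) in 154 Ccr7+, 49 C1qa+ and 141 Xcr1+ Ccr7- cells; the dashed line marks the number of UMIs that 5 bases allow. Most deep Ccr7+ and Xcr1+ Ccr7- cells lie just below the line, and 5 of 49 C1qa+ cells reached 900 UMIs.

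Ctsz measured 808 to 1978 CPM in Ccr7+ cells (median 1577) and 779 to 1450 CPM in Xcr1+ Ccr7- cells (median 1000.2), with a log2 fold change of 0.63 ± 0.16 (adjusted p = 0.0421, edgeR). It was higher in Ccr7+ cells in 8 of 10 plates; in Irf1_FF replicates 1 and 3 it was 808 and 1348 CPM in Ccr7+ cells against 870.5 and 1450 CPM in Xcr1+ Ccr7- cells. Per cell Ctsz was lower in Ccr7+ cells in 8 of 10 plates, at 214 ± 59.5 UMIs against 232 ± 53.7 UMIs. The call was lost without any 1 of 7 plates (Irf1_dXCR1 replicates 1, 4 and 5, Irf1_FF replicates 2 and 4, Ikbkb_dXCR1 replicates 3 and 4; adjusted p 0.051 to 0.129) and within each experiment (0.71 in M3, adjusted p = 0.119; 0.42 in M2, adjusted p = 0.846; edgeR).

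The other 7 members did not pass the threshold. Ctsb averaged 935 ± 174 CPM in Ccr7+ cells and 622 ± 107 CPM in Xcr1+ Ccr7- cells (SD, n = 10) and was higher in every plate, with an adjusted p of 0.0686 by edgeR; 1.41% of all genes were higher and 1.25% lower in every plate. Ctsh averaged 689 ± 263 and 419 ± 116 CPM, and Ctss 1457 ± 382 and 1380.2 ± 148 CPM, in the same order. Per cell, Ctss was lower in Ccr7+ cells in 10 of 10 plates, at 203 ± 66.6 UMIs against 303 ± 43.3 UMIs. Ctsb was lower per cell in 7 of 10 plates, at 130.1 ± 26.6 UMIs against 138 ± 30.3 UMIs, and Ctsh in 5 of 10. Ctsc spread widely among Ccr7+ cells, from 82.9 to 985 CPM (median 198), against 327 to 701 CPM (median 438) in Xcr1+ Ccr7- cells, and it was higher in Ccr7+ cells in 2 of 10 plates. Ctsd and Ctsl were at or near 0 CPM in several plates of both populations, and Ctse averaged 7.04 ± 14.1 CPM in Ccr7+ cells and 17.3 ± 13.5 CPM in Xcr1+ Ccr7- cells.

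Other genes of protein degradation differed in both directions between these 2 sets of cells. Of 7 measured cystatins and serpins, 3 were higher in Ccr7+ cells and none lower: Serpinb9, an inhibitor of granzyme B, averaged 1259 ± 513 CPM in Ccr7+ cells and 56.9 ± 46.2 CPM in Xcr1+ Ccr7- cells, Serpinb6b 1475 ± 663 and 112 ± 119 CPM, and Serpinb1a, an inhibitor of neutrophil proteases, 524 ± 288 and 14.5 ± 25.6 CPM. Of 11 tested lysosomal proteases outside the members, 1 was higher, the carboxypeptidase-like Scpep1, at 579 ± 275 CPM against 120.3 ± 57.1 CPM. Of 28 endolysosomal membrane proteins and hydrolases, 2 were higher and 4 lower. The tetraspanin Cd63 averaged 1710 ± 504 CPM in Ccr7+ cells and 53.4 ± 87.8 CPM in Xcr1+ Ccr7- cells, and the cholesterol carrier Npc2 2961 ± 787 and 1662 ± 288 CPM. The saposin precursor Psap was lower, at 461 ± 179.7 CPM against 1121 ± 151 CPM, as was Cd68, at 206 ± 110.2 CPM against 611 ± 192 CPM. Of 11 genes of the class II pathway, 1 was higher, Ifi30, the thiol reductase that unfolds antigens in lysosomes, at 762 ± 290 CPM against 379.9 ± 219.9 CPM. The 2 lower ones encode the peptide exchange factor of class II molecules: H2-DMa averaged 725 ± 182 CPM in Ccr7+ cells and 1722 ± 247 CPM in Xcr1+ Ccr7- cells, and H2-DMb1 576 ± 154 and 1698 ± 317 CPM. The median log2 fold changes of these 4 lists were 3.04, 0.06, -0.05 and -0.70 in the order given, beside -0.44 for all genes tested.

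C1qa encodes a complement subunit that macrophages make, and C1qa+ cells had higher levels of most members than Xcr1+ Ccr7- cells. In 3 plates (Irf1_dXCR1 replicate 1, Irf1_FF replicate 2 and Ikbkb_dXCR1 replicate 4) with at least 5 cells of both kinds, 6 of 10 members were higher in C1qa+ than in Xcr1+ Ccr7- cells and none was lower (edgeR quasi-likelihood test with plate as a block, adjusted p under 0.05). Over all 10025 genes 0.608% were called higher and 0.0898% lower, together 0.698%, and 4.22% had an unadjusted p under 0.05. DESeq2 called 7 members and 10.2% of all genes. The log2 fold change was above 0 for 8 of 10 members and 47.7% of all genes, with a median of 2.08 for the members and -0.09 for all genes.

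Lgmn measured 2086, 1791 and 1765 CPM in C1qa+ cells of these plates and 216, 132 and 170.4 CPM in Xcr1+ Ccr7- cells, which is a log2 fold change of 3.61 ± 0.32 (adjusted p = 2.00e-04, edgeR). Ctsc measured 2158, 1910.3 and 1759 CPM against 446, 423 and 701 CPM (2.08 ± 0.32, adjusted p = 0.0106, edgeR), and Ctsh 1568, 1519 and 1608 CPM against 489.6, 481 and 291 CPM (2.08 ± 0.31, adjusted p = 0.00805, edgeR). In these 3 genes and in Ctsb, Ctss, Ctsz and Ctsd, every C1qa+ value lay above every value of the Xcr1+ Ccr7- cells. The share of all genes separated in this way is not given here. Ctsb measured 2646, 2805 and 1546 CPM in C1qa+ cells against 416, 544 and 706 CPM (2.21 ± 0.36, adjusted p = 0.0132, edgeR). Ctss measured 3756, 3102 and 2684 CPM against 1329, 1219.9 and 1384 CPM (1.41 ± 0.22, adjusted p = 0.00988, edgeR). Ctsz measured 2299, 2725 and 1586 CPM against 1023, 779 and 975 CPM (1.38 ± 0.28, adjusted p = 0.0496, edgeR). Each of these 6 genes had a higher CPM in C1qa+ cells in all 3 plates, as did 8.21% of all genes. Their UMIs per cell were also higher in all 3 plates.

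Cst3 ran the other way, with 2711, 2449 and 1975 CPM in C1qa+ cells and 4816, 2897 and 3713 CPM in Xcr1+ Ccr7- cells, without passing the threshold (adjusted p = 0.631, edgeR). Per cell the gap was wider, 362 ± 37.3 UMIs against 889 ± 30.7 UMIs (SD, n = 3 plates). The summed CPM of the 6 cysteine cathepsins (Ctss, Ctsb, Ctsl, Ctsz, Ctsc and Ctsh) was 4.79 to 4.93 times that of Cst3 in C1qa+ cells of 3 plates. It was 0.491 to 1.28 times in Ccr7+ cells and 0.701 to 1.31 times in Xcr1+ Ccr7- cells, each over 12 plates. Cst3 reached 900 UMIs in 5 of 49 C1qa+, 85 of 154 Ccr7+ and 100 of 141 Xcr1+ Ccr7- cells. The UMI ceiling thus understates Cst3 unequally, and its part in these ratios and in the gap per cell was not tested. Ctsd measured 401, 658 and 115 CPM in C1qa+ cells and 0, 0.558 and 57.7 CPM in Xcr1+ Ccr7- cells, and Ctsl 558, 0 and 308 CPM against 0, 0 and 65.4 CPM; neither passed the threshold. Among the other lists, the carboxypeptidase Ctsa (cathepsin A) was higher, at 1222 ± 112 CPM in C1qa+ cells and 184 ± 163 CPM in Xcr1+ Ccr7- cells (1 of 9 tested proteases), as were Cd63 and the nuclease Pld3 (2 of 28 endolysosomal genes). None of 4 cystatins and serpins and none of 11 class II genes was called. These calls rest on 3 plates: without Irf1_dXCR1 replicate 1 none of the members was called (log2 fold changes of the 6 from 1.17 to 3.58), without Irf1_FF replicate 2 Lgmn alone was called, at 3.49, and limma-trend called none.

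**Figure D3:**
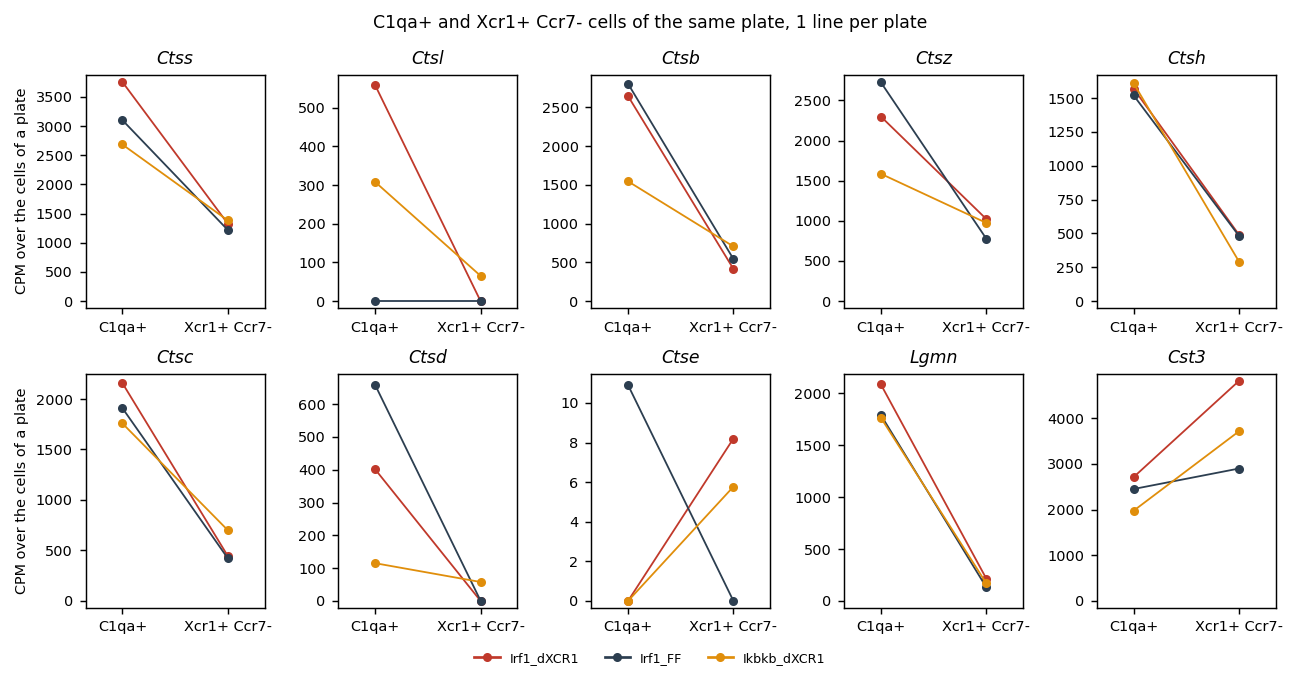
CPM of each member (y axis, linear) in C1qa+ and Xcr1+ Ccr7- cells of the 3 plates that had at least 5 cells of both; each line joins the values of 1 plate and its colour gives the genotype. Ctss, Ctsb, Ctsz, Ctsh, Ctsc, Ctsd and Lgmn are higher at C1qa+ in all 3 plates and Cst3 is lower in all 3.

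The first genotype comparison asks whether the members depend on Irf1 in cells of the sort. Over all cells none of the 10 members differed between Irf1_dXCR1 and Irf1_FF at an adjusted p under 0.05 (edgeR quasi-likelihood test, fit of 14 plates), nor did any of the 16203 genes tested (0%). None of the members had an unadjusted p under 0.05, against 7.85% of all genes, and DESeq2 called 100 genes (0.617%), none of them a member. The smallest p was that of Ctsh, at 870.1, 586, 628, 608 and 723 CPM in the 5 Irf1_dXCR1 plates and 464, 748, 529 and 444 CPM in the 4 Irf1_FF plates (log2 fold change 0.37 ± 0.22, adjusted p = 0.564, edgeR). The groups overlapped for every member; over all genes 0.599% were higher and 0.623% lower in each Irf1_dXCR1 plate than in each Irf1_FF plate. Ctss, whose promoter holds the interferon-type motif, measured 2356, 1009, 1678, 1380 and 1150.2 CPM in Irf1_dXCR1 plates and 744, 1669, 1254 and 1039 CPM in Irf1_FF plates. Cst3 averaged 4749 ± 747 CPM in Irf1_dXCR1 plates and 4056 ± 1058 CPM in Irf1_FF plates (SD), and Ctsb 1027 ± 395 and 1096 ± 144 CPM.

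**Figure D4:**
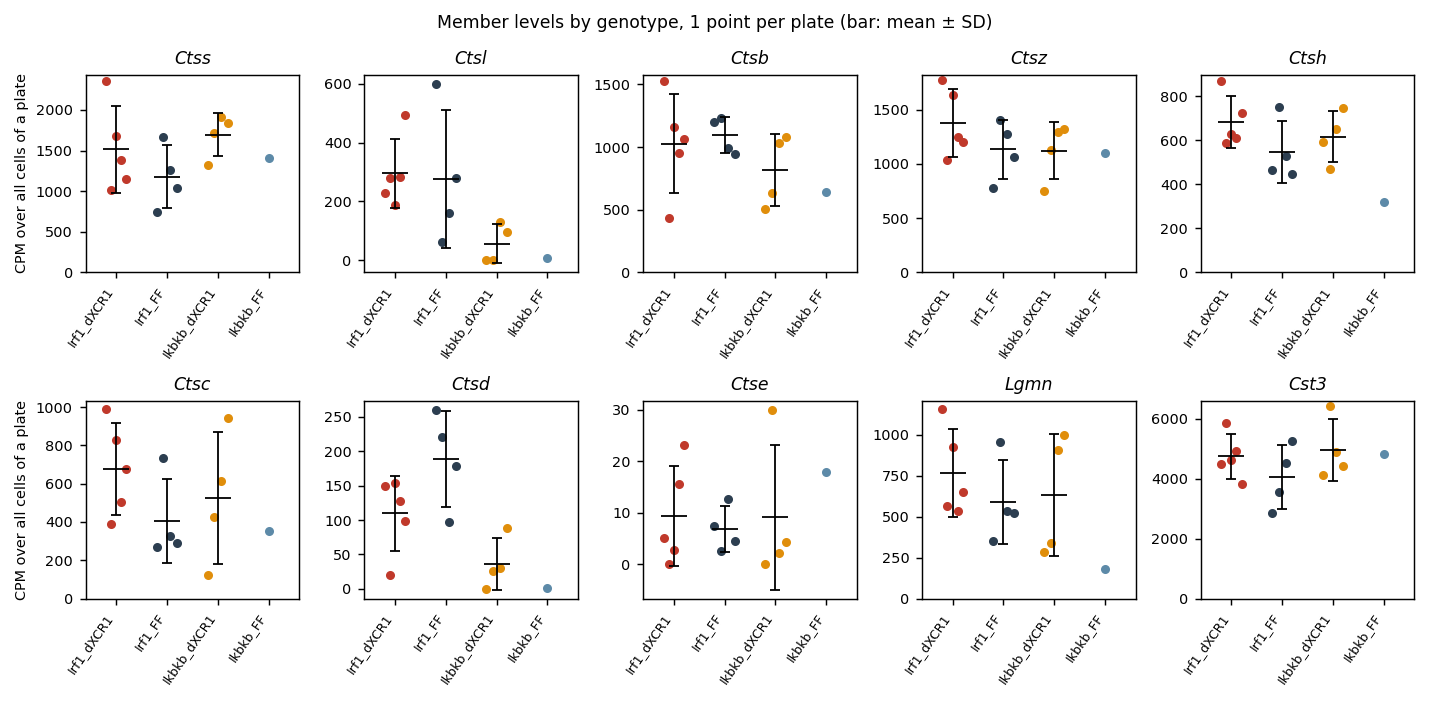
CPM of each member over all cells of a plate (y axis, linear) by genotype; points are plates, horizontal bars are means and whiskers are ± 1 SD, with a lone point for the single Ikbkb_FF plate. Points of Irf1_dXCR1 and Irf1_FF overlap in all 10 panels, and Ikbkb_FF lies below the 4 Ikbkb_dXCR1 plates for Lgmn and Ctsh.

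The share of cells with a C1qa UMI, those that met another definition included, ranged from 2.04 to 30.5% in Irf1_dXCR1 plates, from 6.98 to 27.5% in Irf1_FF plates and from 0 to 27.5% in Ikbkb_dXCR1 plates. In each of these groups the plate with the highest share also had the most Lgmn, Ctsc and Ctsh over all cells: Lgmn measured 1158 CPM in Irf1_dXCR1 replicate 1, 954 CPM in Irf1_FF replicate 2 and 998 CPM in Ikbkb_dXCR1 replicate 4. In sums over a plate, fewer cells of a type and less RNA per cell cannot be told apart. Ctss was also highest in Irf1_dXCR1 replicate 1, at 2356 CPM, and in Irf1_FF replicate 2, at 1669 CPM. The share of all genes with such a pattern is not given here. Ctsl was highest elsewhere among Irf1_FF plates. Irf1_FF replicate 1, in which 67.4% of cells carried fibroblast markers, held 601 CPM of Ctsl, against 61.9 to 279 CPM in the other Irf1_FF plates. The part of these cells in the plate levels was not tested.

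Within Xcr1+ Ccr7- cells none of the members was called between 3 Irf1_dXCR1 and 4 Irf1_FF plates, and 0% of 11868 genes were (edgeR; 4.44% of genes and none of the members had an unadjusted p under 0.05, and DESeq2 called 109 genes, 0.918%, none of them a member). The smallest p was that of Lgmn, at 216, 193 and 211 CPM in Irf1_dXCR1 plates and 111, 132, 77.2 and 64.4 CPM in Irf1_FF plates (log2 fold change 1.21 ± 0.94, adjusted p = 0.899, edgeR). Lgmn, Ctsc and Ctsh were higher in each Irf1_dXCR1 plate than in each Irf1_FF plate, as were 2.48% of all genes, while 1.37% of genes and none of the members were lower. The log2 fold change was above 0 for 10 of 10 members and 50.7% of all genes. Ctsc measured 446, 508 and 462 CPM against 367, 423, 429.6 and 387 CPM, and Ctsh 489.6, 554 and 535 CPM against 418, 481, 473 and 408 CPM. The Irf1_dXCR1 plates left out for having 4 such cells each held 0 CPM of Lgmn, 641 and 223 CPM of Ctsc, and 513 and 182 CPM of Ctsh, so none of the 3 genes is separated when they are counted.

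Within Ccr7+ cells Ctsc had the smallest p of the members between Irf1_dXCR1 and Irf1_FF. It measured 287, 542, 834, 659 and 985 CPM in Irf1_dXCR1 plates and 180.1, 206, 88.5 and 187 CPM in Irf1_FF plates. Every Irf1_dXCR1 plate lay above every Irf1_FF plate, as was the case for 0.405% of all genes, while 0.528% lay below. The log2 fold change was 1.96 ± 0.65 (SE), or 3.88-fold, with an unadjusted p of 0.00454 and an adjusted p of 0.383 (edgeR quasi-likelihood test over 11362 genes), so the difference did not pass the threshold. No gene was called in this fit (0%), 11% of genes had an unadjusted p under 0.05, and DESeq2 called 62 genes (0.546%), none of them a member. The log2 fold change was above 0 for 5 of 10 members and 48% of all genes. For Ctsc it was 1.72 to 3.09 over 20 alternatives (adjusted p 0.298 to 1), and 2.04 without Irf1_dXCR1 replicate 2 and Irf1_FF replicate 1, the plates that stood apart. Ctsc had a UMI in 4 of 13, 2 of 8, 4 of 7, 11 of 19 and 10 of 14 Ccr7+ cells of the Irf1_dXCR1 plates, and in 3 of 6, 2 of 15, 3 of 13 and 5 of 13 cells of the Irf1_FF plates. The shares overlapped, and each plate value rests on 2 to 11 positive cells.

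Between the genotypes, marker sums of the same Ccr7+ cells were apart for cDC1 markers and overlapped for the other lists given here. In such sums, fewer cells of a type and less RNA per cell cannot be told apart. The 10 cDC1 markers summed to 1434 to 2785 CPM in Irf1_dXCR1 plates and 3006 to 4644 CPM in Irf1_FF plates, with no overlap. Of single genes in these cells, 0.528% were lower in every Irf1_dXCR1 plate than in every Irf1_FF plate, and a share for sums of 10 genes is not given here. The sum includes Xcr1, the gene in the name dXCR1, and was not repeated without it. The markers of mature dendritic cells summed to 7498 to 13316 CPM and 4020.1 to 12715 CPM. Macrophage markers summed to 0.782 to 488 CPM in Irf1_dXCR1 and 1.67 to 263 CPM in Irf1_FF plates, with 3 and 6 of the 10 at 0, and fibroblast markers to 6.83 to 1624 CPM and 2.23 to 2723 CPM, with none of the 4 at 0 in either group. Their part in the Ctsc difference was not tested. Ctsc measured 481 CPM in Ccr7+ cells with an Xcr1 UMI and 402 CPM in those without. In Ikbkb_dXCR1 plates with at least 5 Ccr7+ cells Ctsc was 82.9 and 668 CPM, and in the Ikbkb_FF plate it was 190.2 CPM.

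**Figure D5:**
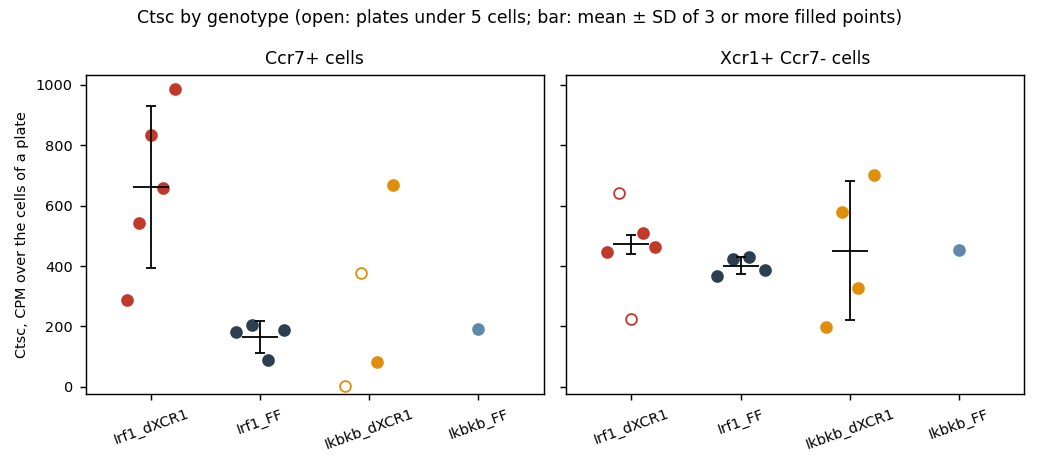
Ctsc CPM (y axis, linear) in Ccr7+ cells (left) and Xcr1+ Ccr7- cells (right) by genotype; filled points are plates with at least 5 such cells, open points are plates with fewer, and bars show the mean ± SD of 3 or more filled points. In Ccr7+ cells the 5 Irf1_dXCR1 plates lie between 287 and 985 CPM, above the 4 Irf1_FF plates at 88.5 to 206 CPM.

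The Irf1 effect on Ctsc in Ccr7+ cells exceeded that in Xcr1+ Ccr7- cells by 1.62 ± 0.71 on the log2 scale in the 7 plates that had both, without passing the threshold (unadjusted p = 0.0372, adjusted p = 1, edgeR). No gene of 9087 was called in that test (0%), 0.968% had an unadjusted p under 0.05, and DESeq2 called 209 genes (2.3%), none of them a member; 5 of 10 members and 54.2% of genes had a difference above 0. The other 9 members had an unadjusted p of 0.0851 (Ctsh) or above between genotypes in Ccr7+ cells (edgeR). Lgmn averaged 1255 ± 343 CPM in 5 Irf1_dXCR1 plates and 778 ± 445 CPM in 4 Irf1_FF plates, Cst3 6142 ± 1478 and 5879.6 ± 2222 CPM, and Ctss 1113 ± 541 and 1208 ± 432 CPM (SD). In C1qa+ cells each Irf1 group had 1 plate with at least 5 cells, so no test was made: Irf1_dXCR1 replicate 1 and Irf1_FF replicate 2 held 2086 and 1791 CPM of Lgmn, 2158 and 1910.3 CPM of Ctsc, and 2711 and 2449 CPM of Cst3.

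The second genotype comparison asks the same of Ikbkb, with a single control plate that was assumed to vary like the other groups. Over all cells none of the members and 0% of 16203 genes were called between Ikbkb_dXCR1 and Ikbkb_FF (edgeR); 2 members, Ctsh and Lgmn, and 4.36% of all genes had an unadjusted p under 0.05. DESeq2 called 1177 genes (7.26%), among them Ctsd. Ctsh had the smallest p, at 593, 469, 652 and 746 CPM in Ikbkb_dXCR1 plates and 321 CPM in the Ikbkb_FF plate (log2 fold change 0.97 ± 0.39, adjusted p = 1, edgeR). Lgmn measured 286, 339.7, 904 and 998 CPM in Ikbkb_dXCR1 plates and 179 CPM in the Ikbkb_FF plate. Both genes were higher in all 4 deleted plates than in the control, and the share of all genes for which this held is not given here. For Lgmn, Ctsh, Ctsc and Ctsd the higher pair of Ikbkb_dXCR1 values came from the mice aged 6 weeks. The lower pair came from those aged 8 weeks, the age of the control. Ctsd measured 0, 26.1, 30.7 and 88.3 CPM in Ikbkb_dXCR1 plates and 1.53 CPM in the Ikbkb_FF plate. Shares of cells with a C1qa UMI, those that met another definition included, were 5.56, 0, 13.2 and 27.5% in Ikbkb_dXCR1 plates and 2.94% in the Ikbkb_FF plate, and their part in these levels was not tested. Ctsc, at 121, 426, 616 and 944 CPM, lay on both sides of the 355 CPM of the control.

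No gene of the other 4 lists was called in either genotype comparison over all cells. Among 12 lysosomal proteases outside the members, 3 had a log2 fold change above 0 in Irf1_dXCR1 against Irf1_FF (median -0.64), compared with 8 of the 10 members (median 0.35) and 47.3% of all genes. In Ikbkb_dXCR1 against Ikbkb_FF the numbers above 0 were 9 of 12 and 9 of 10, with 47.6% of all genes.

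Some of the members varied together across plates and populations. Over 27 sums of a plate and a population, which share libraries and, within a plate, depth, the Spearman correlation of log2 CPM was highest between Ctsh and Lgmn (0.84), followed by Ctsz and Lgmn (0.77) and Ctsb and Lgmn (0.71). Ctsz and Ctsh also had 0.71, whereas Cst3 had -0.32 (with Ctsc) to 0.21 (with Ctsz), and Ctsl had 0.03 with Ctsh and 0.12 with Ctsc. Among 3710 genes with a mean of at least 50 CPM, the closest to Lgmn were Clec7a (0.85), Ctsh (0.84) and Sirpa (0.84), and the closest to Ctsc were Prdx1 (0.84), Ms4a6b (0.71) and Ms4a6c (0.71). Genes close to Cst3 included Lsp1 (0.93) and Myl6 (0.92), while Ctss was closest to Apoe (0.78), Tyrobp (0.76) and Lamp2 (0.75), and Ctsz to Ifi30 (0.83), Aldoa (0.83) and Gngt2 (0.81). Ctse was below the minimum level. These values are descriptions of these 27 sums.

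For 458 cells the deposited annotation gives surface protein stainings. MHC class II staining had a median of 9.77 on the arcsinh scale in Ccr7+ cells, 8.25 in C1qa+ cells and 9.01 in Xcr1+ Ccr7- cells. Among Ccr7+ cells of the 7 plates with at least 10 stained ones, Lgmn CPM and MHC class II staining had a Spearman correlation of -0.21 to 0.73 (median 0.49), above 0 in 6 plates. For Cst3 it ran from -0.54 to 0.60 (median -0.01), above 0 in 3 plates. Of the 10 members in Ccr7+ cells Lgmn had the highest median, and Ctsh was also above 0 in 6 plates (median 0.22). In Xcr1+ Ccr7- cells of 5 plates Lgmn had a median of 0.19 and was above 0 in 3. A share over all genes is not given here.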

How the data were processed

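Single cells sorted as cDC1 into 14 plates were sequenced. The authors deposited UMI counts per gene and cell, made with bcl2fastq, STAR 2.5.3a and HTSeq 0.9.1 on GRCm38, per the submitters' processing notes; no other filter is stated there. The deposited annotation gives the fraction of spike-in UMIs per cell and, as a score, the arcsinh of the surface stainings, both as the authors computed them. UMIs of 5 bases limit the count of a gene in a cell, so abundant transcripts are understated.

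Counts were summed per plate, over all cells and over cells meeting exactly 1 definition (1 or more UMI); a plate entered a population with at least 5 cells. CPM are counts per 1000000 UMIs of the same cells. Sums were tested with edgeR 4.0.16 in R 4.3.3 (filterByExpr, TMM, quasi-likelihood F-test, two-sided, Benjamini-Hochberg over all genes, threshold 0.05), with all genotypes in one fit of genotype and with plate as a block between populations, since both populations come from the same tumour. The standard error is the absolute log2 fold change divided by the square root of F. Each plate was 1 mouse, and replicate numbers were given in accession order, so they pair no plates across genotypes. Alternatives were DESeq2 1.42.0, limma 3.58.1, other filters and definitions, and leaving out each plate. The fits were tested on simulated data. Share intervals are exact 95% binomial and, like counts, cover counting error only. No doublet caller was run; the 24 cells meeting more than 1 definition were left out of the populations.

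The 10 members and the further lists and tests were chosen with earlier results of these data known. All 10 members are described; a fold change is given for each member past the threshold and, where there was none, for the member with the smallest p. Up to 4 genes of each further list, those with the smallest adjusted p, are named. Likeness used genes with a mean of at least 50 CPM, and the 3 closest were ranked for each member; 1 of them is not reported here.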

Additional observations from a re-analysis of the deposited data

Results flagged for a closer look

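Within groups of 4 or 5 plates, 7 of 60 sets of CPM values had a plate far from the others by Dixon's criterion, of which chance gives about 1 in 20. Over all cells, Ctsc measured 733 CPM in Irf1_FF replicate 2 and 268 to 328 CPM in the other Irf1_FF plates, and Ctse 30 CPM in Ikbkb_dXCR1 replicate 2 and 0 to 4.44 CPM in the others. In Xcr1+ Ccr7- cells, Ctsz measured 1450 CPM in Irf1_FF replicate 3 (others 779 to 889 CPM), and Cst3 5844 CPM in Ikbkb_dXCR1 replicate 2 (others 3713 to 4010.2 CPM). In Ccr7+ cells of Irf1_FF replicate 1, Ctss was low at 565 CPM (others 1362 to 1491 CPM) and Ctsl high at 453 CPM (others 0 to 1.88 CPM). Ctsh measured 1528 CPM in Ccr7+ cells of Irf1_dXCR1 replicate 2, the plate with the fewest genes per cell (others 759 to 957 CPM).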

How the results depend on the processing

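No fold change given for a member turned its direction under the alternatives tried. Lgmn and Cst3 in Ccr7+ cells kept their calls under all 22 alternatives (log2 fold changes 2.52 to 3.53 and 0.46 to 0.75), while Ctsz lost its call under 12 of them (0.42 to 0.94), among them upper-quartile scaling (adjusted p = 0.151, edgeR). None of the alternatives compared UMIs per cell, which were lower in Ccr7+ cells in 9 of 10 plates for Cst3 and in 8 of 10 for Ctsz. DESeq2 called 5 members in that comparison, in place of 3, and 1 member, in place of 0, between Ikbkb_dXCR1 and Ikbkb_FF. In C1qa+ cells 6 members were called, 0 by limma-trend and 0 to 6 without 1 plate, and Ctsz lost its call under 7 of 13 alternatives. Without the plate as replicate block 3 members and 332 genes were called in Ccr7+ cells, and 6 members and 84 genes in C1qa+ cells, where genotype was left out too because each plate had its own; that alternative, leaving out 2 doubted plates, leaving out fibroblast-marker cells and using Ikbkb plates of 8-week mice only were chosen after seeing the data. Counts over all genes moved more. Between Ccr7+ and Xcr1+ Ccr7- cells 243 genes were called, against 1891 by DESeq2, 789 by limma-trend (342 higher, 447 lower), 475 with 10 or more UMIs of the defining gene (205 higher, 270 lower), 134 in M3, 82 in M2 and 120 with at least 10 cells per plate. In C1qa+ cells it was 70, against 1019 by DESeq2, 106 without a filter on low counts, 0 by limma-trend and 0 to 46 without 1 plate. For Irf1, 0 genes were called, against 100 by DESeq2 over all cells, 109 in Xcr1+ Ccr7- cells (1 gene without Irf1_dXCR1 replicate 5), and, in Ccr7+ cells, 62 by DESeq2, 97 by upper-quartile scaling, which moved the median of all genes by 0.56, and 0 to 7 elsewhere. For the difference of Irf1 effects it was 0, against 209 by DESeq2 and 5 without a filter, and for Ikbkb 0, against 1177 by DESeq2. The causes were not tested. The C1qa+ comparison could not be fitted with at least 10 cells per plate or in M2 alone. Plate sums of 5 to 19 cells limit the precision of members detected in few cells, such as Ctsd, Ctsl and Ctse.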
